A study of Homo sapiens with 36 samples.

Results

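The LPS response of THP-1 monocytes stably depleted of NR4A3 and held at 10% CO2 was measured in the 3 libraries titled as shNR4A3 cells at 10% CO2 + LPS and the 3 titled as shNR4A3 cells at 10% CO2 alone. These 6 libraries, chosen by title with no measured value used, are part of 36 libraries that cover 12 conditions in triplicate. THP-1 is an established human monocyte-like line that arose from an acute monocytic leukaemia. All 6 libraries came from cells transduced with lentivirus carrying a short hairpin RNA (shRNA) against NR4A3 and kept for 4 h at 10% CO2 (hypercapnia) in buffered DMEM. In the + LPS group 2.5 µg/mL LPS, a lipopolysaccharide of the outer membrane of Gram-negative bacteria, was present for 2 h before lysis, and the basal group received none. The response was set against that of THP-1 cells with a non-target shRNA (shNT) and of cells with an shRNA against NR4A2 (shNR4A2), both at 10% CO2, and against that of shNR4A3 cells at 5% CO2 (normocapnia), each with 3 basal and 3 + LPS libraries. The labels name no further shRNA line against NR4A3, so the depletion and any other feature of this line cannot be told apart.

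LPS is bound by CD14 and by the complex of TLR4 with MD-2 (the product of LY96), and the adaptors MyD88 and TRIF (TICAM1) carry the signal to NF-κB, MAP kinases and interferon regulatory factors. In monocytes the first transcripts to accumulate encode cytokines, chemokines, immediate early transcription factors and the inhibitors that later restrain the same pathway. NR4A1, NR4A2 and NR4A3 are orphan nuclear receptors of the immediate early class that bind DNA at NBRE elements and are themselves induced by inflammatory signals.

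The 3 basal libraries held 16568967 to 23844486 counts assigned to genes and the 3 + LPS libraries held 19028859 to 20122525. Of 15 monocyte markers, 14 reached a mean TPM of 1 or more in each group (TPM is a level corrected for gene length and for the total of a library), with a summed level of 3055 to 3858 TPM in basal and 2527 to 3015 TPM in + LPS libraries. Markers of other cells were low: the summed levels were at most 4.17 TPM for T cells, 10.96 for B cells, 0.410 for erythroid cells, 0.990 for epithelial cells and 1.84 for fibroblasts, and HBA2 and HBB had no counts. The 4 NK cell markers summed to 41.6 to 61.1 TPM, most of it NKG7 at a mean of 40.7 TPM in basal and 40.6 TPM in + LPS libraries. The labels do not say that replicates were separate cultures, while the study's figure legends give n = 3 individual experiments for its sequencing comparisons. The p-values measure only the spread between these samples.

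The targeted gene was checked first. NR4A3 (ENSG00000119508; chr9:99821855-99866891, plus strand, GRCh38) was at 0.197, 0.185 and 0.232 TPM in the 3 basal shNR4A3 libraries and at 0.374, 0.176 and 0.237 TPM in the 3 basal shNT libraries. The basal groups overlapped, the mean in shNR4A3 was 78.0% of that in shNT, and an exact two-sided permutation test gave p = 0.6, at a depth of only 6 to 14 counts a library. With LPS, NR4A3 was at 12.5, 19.98 and 15.7 TPM in shNR4A3 and at 30.7, 32.7 and 38.6 TPM in shNT. All 3 depleted libraries were then below all 3 control libraries, at 47.3% of the control mean (exact two-sided permutation p = 0.1, the smallest that 3 against 3 can give). In basal cells a knockdown was thus not detectable at this depth, and the depleted line still accumulated NR4A3 transcripts when LPS was added.

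All 3 NR4A receptors rose with LPS. NR4A3 increased 93.6-fold within the depleted line, a log2 fold change of 6.55 (SE 0.23, adjusted p = 7.96e-11, edgeR quasi-likelihood test over all genes with Benjamini-Hochberg adjustment, used throughout). NR4A2 (chr2:156324432-156342348, minus strand) went from 1.73, 2.25 and 2.26 TPM to 36.1, 41.8 and 37.98 TPM, which is 22.2-fold (log2 4.47, SE 0.12). NR4A1 (chr12:52022832-52059507, plus strand) went from 3.19, 2.79 and 3.83 TPM to 14.8, 15.5 and 17.2 TPM, which is 5.89-fold (log2 2.56, SE 0.12). For each receptor every + LPS library was above every basal library. Over all genes tested, the basal and + LPS groups did not overlap, in either direction, for 52.2% in scaled counts.

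**Figure D1:**
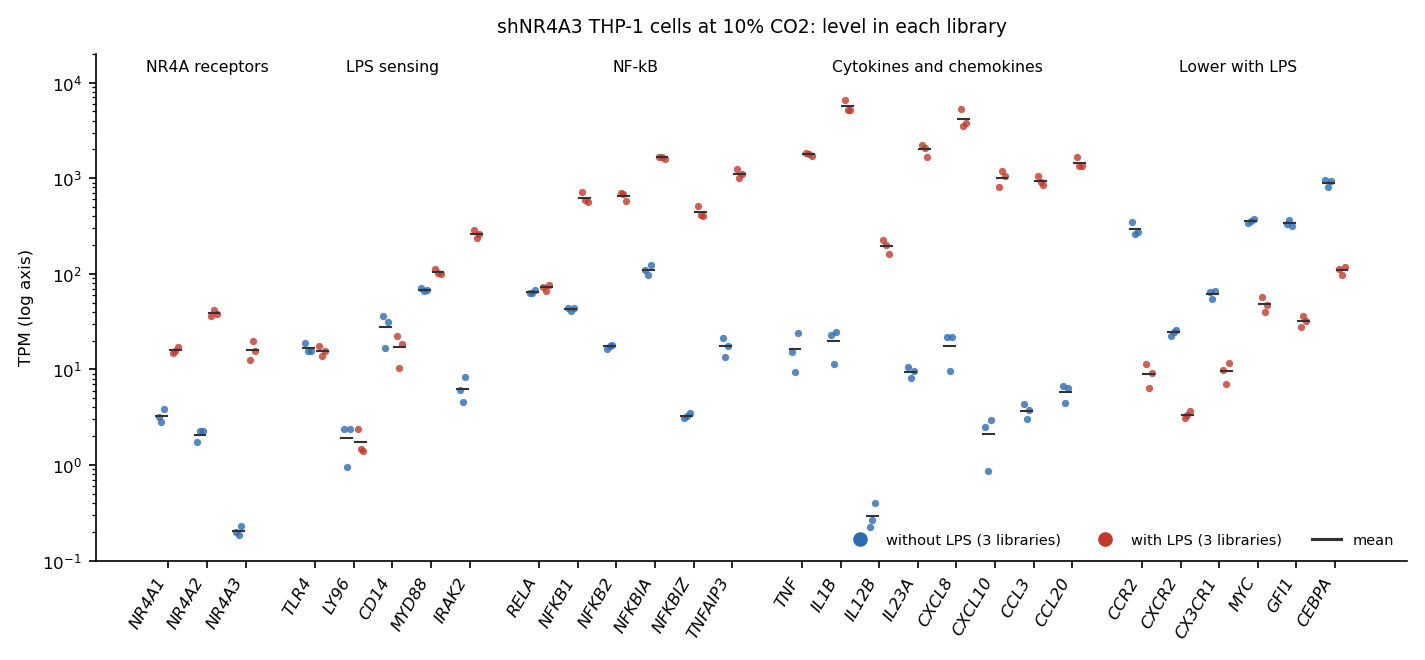
Transcript level in each of the 6 shNR4A3 libraries at 10% CO2 for selected genes, in TPM on a log axis; blue points are the 3 basal libraries, red points the 3 + LPS libraries and bars their means. The basal and + LPS points stand apart for the NR4A receptors, with NR4A3 between 0.185 and 0.232 TPM basally and between 12.5 and 19.98 TPM with LPS.

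Over the whole transcriptome, 7456 of 17720 genes tested (42.1%) were differentially expressed genes (DEGs) at an adjusted p under 0.05. Of these, 3647 were higher with LPS (20.6% of genes tested) and 3809 were lower (21.5%), the background for the counts of each list below. The test did not pair replicate numbers, and 7448 of the 7456 DEGs were also called with the replicate number as a block. A gene could be tested on counts in the libraries of a single condition, so some could enter through + LPS libraries alone. List counts and medians describe tested members only. Members with few basal counts, such as TNFSF18, CASP5, ACOD1 and SLC30A4, could raise the share higher and the median of their lists in this way. With a change of at least 2-fold also required, 1372 were higher (7.74%) and 920 were lower (5.19%), and at 16-fold or more the split was 309 against 4. The larger changes were thus mostly increases, although higher and lower DEGs were nearly equal in number. That balance depended on scaling: relative to trimmed mean (TMM) factors, scaling by library size alone moved the median of all genes by -0.25 on the log2 scale and gave 1969 higher and 6791 lower DEGs, so that 22.5% rather than 48.9% of DEGs were higher. Fold changes below are TMM-scaled, while TPM values are shares of each library and run lower in + LPS libraries for a gene with a fold change of 1. In RNA from a whole culture, fewer cells expressing a gene and less RNA per cell cannot be told apart.

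**Figure D2:**
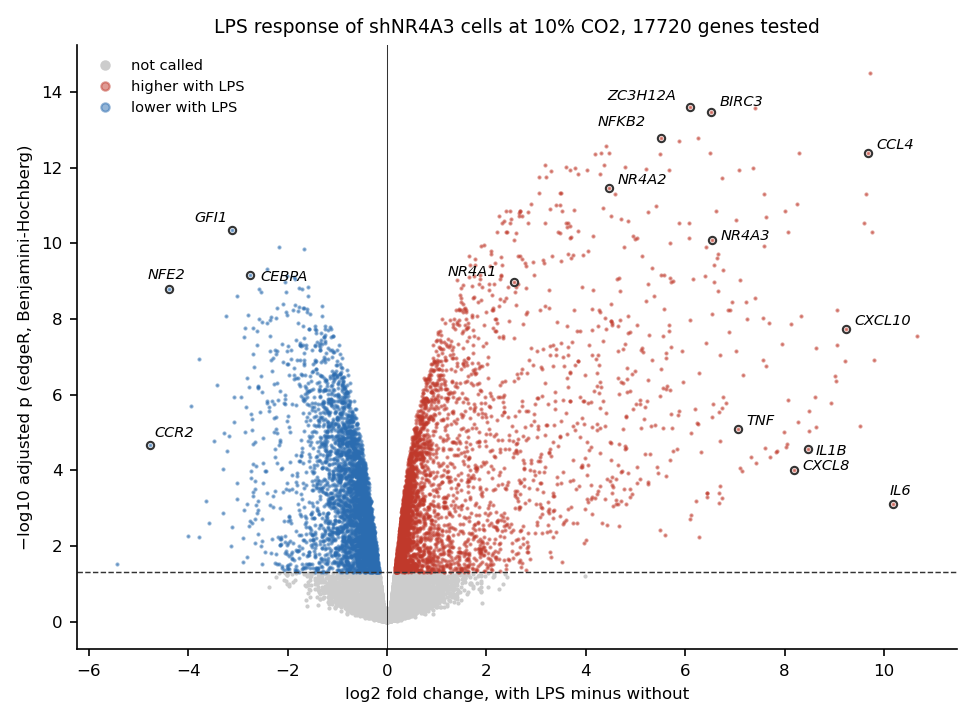
Log2 fold change with LPS (horizontal axis) against −log10 of the adjusted p (vertical axis) for the 17720 genes tested. DEGs are red where higher and blue where lower with LPS, the dashed line marks an adjusted p of 0.05, and the genes far from zero lie mostly to the right, with 309 DEGs higher by 16-fold or more and 4 lower.

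Transcripts of the LPS receptor complex itself did not pass the test, while several adaptors rose. TLR4, the signalling receptor, was at 18.7, 15.5 and 15.5 TPM basally and 17.7, 13.9 and 15.6 TPM with LPS (log2 0.20, SE 0.13, adjusted p = 0.24). LY96, which encodes its co-receptor MD-2, had a log2 difference of 0.18 (SE 0.57) and CD14 one of -0.41 (SE 0.40). The basal and + LPS libraries overlapped for all 3 genes. With replicate numbers as a block, TLR4 (log2 0.20, adjusted p = 0.0413) and CD14 (-0.42, adjusted p = 0.00101) passed, and by library size alone TLR4 and LY96 had a negative sign. Among 26 tested genes of the receptor and adaptor list, 10 were higher and 7 lower, against 20.6% and 21.5% over all genes. The median log2 fold change was 0.13 against 0.003 over all genes, and it was -0.13 when scaled by library size alone. The largest rise was in IRAK2, a kinase of the MyD88 signalling complex, from 6.14, 4.58 and 8.24 to 289, 235 and 259 TPM (log2 5.67, SE 0.18). MAP3K8, the kinase that links the pathway to ERK, rose by log2 5.41 (SE 0.12), TICAM1, the TRIF adaptor, by 2.79 (SE 0.11) and the surface receptor TLR2 by 1.89 (SE 0.07). TIRAP, the bridging adaptor for MyD88, fell by 1.05 on the log2 scale (SE 0.12), and the TLR4 homologue CD180 fell by 2.19 (SE 0.20).

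NF-κB subunits and their regulators rose as a group: 19 of 22 tested were higher, none was lower, and the median log2 fold change was 2.64. NFKBIA (ENSG00000100906; chr14:35401511-35404749, minus strand), which encodes the inhibitor IκBα, was at 108, 98.0 and 124 TPM basally and 1680, 1657 and 1605 TPM with LPS (log2 4.18, SE 0.09, adjusted p = 4.23e-13). TNFAIP3 (chr6:137867188-137883312), which encodes the ubiquitin-editing inhibitor A20, went from 21.6, 13.4 and 17.5 to 1242, 1013 and 1096 TPM (log2 6.28, SE 0.22). NFKBIZ, which encodes the nuclear protein IκBζ, went from 3.09, 3.27 and 3.498 to 518, 415 and 405 TPM (log2 7.36, SE 0.14). No + LPS library overlapped a basal library for these 3 inhibitors and regulators, as was so for 52.2% of all genes tested. NFKBIZ was named by size, for which separate groups were required. Among the subunits, NFKB2 (log2 5.50, SE 0.10), RELB (4.404, SE 0.08), NFKB1 (4.14, SE 0.12) and REL (3.69, SE 0.11) rose far more than RELA, which was at 62.5, 63.0 and 67.5 TPM basally and 72.1, 66.6 and 77.2 TPM with LPS (log2 0.44, SE 0.07). The basal and + LPS ranges of RELA overlapped in TPM, and it did not pass when scaled by library size alone.

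Promoter sequences of 6 induced genes are shown because the letters of known NF-κB and AP-1 sites can be read in them. Among named genes of the response, those printed hold a match to the κB consensus or to AP-1 (TGANTCA) in the 250 bases before the RefSeq start site and have a window that lies outside the gene as the deposited annotation places it. Each is given 5′ to 3′ on the strand of the gene (GRCh38.p14, RefSeq), with matches on either strand in capitals. The windows are chr14:35404750-35404999 on the minus strand for NFKBIA, chr3:101827740-101827989 on the plus strand for NFKBIZ, chr4:73869143-73869392 on the plus strand for CXCL1, chr4:76023498-76023747 on the minus strand for CXCL10, chr2:227813592-227813841 on the plus strand for CCL20 and chr2:151357342-151357591 on the plus strand for TNFAIP6.
NFKBIA: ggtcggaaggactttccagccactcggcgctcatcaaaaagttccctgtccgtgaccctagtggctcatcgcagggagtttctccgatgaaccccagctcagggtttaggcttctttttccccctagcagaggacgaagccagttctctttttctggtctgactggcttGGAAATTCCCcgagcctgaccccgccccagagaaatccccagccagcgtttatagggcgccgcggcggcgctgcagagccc
NFKBIZ: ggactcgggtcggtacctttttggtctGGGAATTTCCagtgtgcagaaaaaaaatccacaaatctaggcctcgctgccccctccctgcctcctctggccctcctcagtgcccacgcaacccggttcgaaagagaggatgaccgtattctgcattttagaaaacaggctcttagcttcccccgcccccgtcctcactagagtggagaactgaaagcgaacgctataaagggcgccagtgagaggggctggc
CXCL1: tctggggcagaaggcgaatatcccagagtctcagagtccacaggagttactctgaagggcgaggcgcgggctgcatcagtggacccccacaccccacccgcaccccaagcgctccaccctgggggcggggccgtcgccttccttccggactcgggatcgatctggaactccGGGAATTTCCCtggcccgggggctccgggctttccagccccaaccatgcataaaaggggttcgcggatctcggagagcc
CXCL10: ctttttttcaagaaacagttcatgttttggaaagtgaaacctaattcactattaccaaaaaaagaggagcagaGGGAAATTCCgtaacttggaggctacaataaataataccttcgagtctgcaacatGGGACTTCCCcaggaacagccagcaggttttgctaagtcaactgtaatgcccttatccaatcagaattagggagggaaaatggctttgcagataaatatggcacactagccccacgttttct
CCL20: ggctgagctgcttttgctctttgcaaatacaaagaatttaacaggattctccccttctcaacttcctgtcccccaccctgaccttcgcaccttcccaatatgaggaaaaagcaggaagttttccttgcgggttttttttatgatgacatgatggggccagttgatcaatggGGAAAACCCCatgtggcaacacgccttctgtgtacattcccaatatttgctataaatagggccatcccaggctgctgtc
TNFAIP6: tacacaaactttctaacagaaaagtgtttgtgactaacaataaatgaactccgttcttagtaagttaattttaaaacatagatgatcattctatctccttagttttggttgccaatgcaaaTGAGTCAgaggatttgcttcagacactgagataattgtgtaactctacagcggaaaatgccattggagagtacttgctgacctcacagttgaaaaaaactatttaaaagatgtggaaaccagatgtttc

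The κB matches in NFKBIA, CXCL1 and CCL20 end 72, 69 and 70 bases before the start site, and the run of 11 capitals in CXCL1 is a pair of overlapping matches on opposite strands. CXCL10 holds a κB match ending 113 bases and another ending 168 bases before its start, NFKBIZ holds one ending 214 bases before, and TNFAIP6 holds an AP-1 match ending 123 bases before. Of the 15 genes named for the largest rises, 13 had a promoter in the table, and 8 of these held a κB match and 4 an AP-1 match. Of the 15 named for the largest falls, 11 had a promoter, and 2 of these held a κB match and 3 an AP-1 match. Among 179 promoters of genes higher by 16-fold or more, 22.9% held a κB match and 12.8% an AP-1 match, beside 11.7% and 4.14% of 12091 promoters of all genes tested and 9.57% and 6.60% of all 27305 promoters. Among 117 promoters of genes lower by 4-fold or more these shares were 5.98% and 10.3%. The CRE (TGACGTCA) was found in 2.79% and the NBRE (AAAGGTCA) in 1.12% of the promoters of genes higher by 16-fold or more, against 2.69% and 0.686% of genes tested. These shares are only 5 and 2 of the 179 promoters, too few to show an excess. These are matches of letters in a window, not measured binding.

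The classical monokines were among the transcripts that changed most. TNF (chr6:31575567-31578336) went from 15.4, 9.51 and 24.3 to 1856, 1775 and 1702 TPM (log2 7.06, SE 0.30, adjusted p = 8.18e-06). IL1B (chr2:112829751-112836903) went from 23.0, 11.3 and 24.6 to 6520, 5226 and 5200 TPM, which is 354-fold (log2 8.47, SE 0.39). IL1A rose from 1.17, 0.275 and 1.12 to 617, 387 and 468 TPM (log2 9.52, SE 0.40). Basal and + LPS libraries were separated by more than 10-fold in TPM for all 3, and basal replicate 2 was the lowest basal library for each. IL1B was also named by size, for which separate groups were required. Of 12 tested genes of the interleukin-1 family, 8 were higher and 1 lower, with a median of 1.93. IL36G, with no basal counts, could enter this list through + LPS libraries alone. The lower gene was the inhibitory receptor SIGIRR, which no longer passed when + LPS replicate 1, + LPS replicate 2 or basal replicate 2 was left out. The receptor antagonist IL1RN rose only from 38.2, 34.1 and 38.8 to 68.3, 40.2 and 52.2 TPM (log2 0.81, SE 0.19). Of 14 TNF superfamily ligands, 7 were higher and 4 lower (median 0.55). LTB and LTA, the lymphotoxin subunits, rose by log2 3.502 (SE 0.12) and 3.41 (SE 0.20), while TNFSF14 (LIGHT) fell by 2.21 (SE 0.12) and TNFSF13B (BAFF) fell by 1.23 (SE 0.15).

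CXC chemokines had the highest median log2 fold change of the lists, 7.57, with 10 of 11 tested members higher. CXCL5, PF4, PPBP, CXCL14 and CXCL17 had too few counts to be tested. CXCL9, with 1 count over the basal and 221 over the + LPS libraries, could enter through + LPS libraries alone. The share and the median are therefore partly set by the count filter. CXCL8 (chr4:73740506-73743716), the main neutrophil attractant, went from 21.6, 9.71 and 21.9 to 5267, 3530 and 3796 TPM, which is 292-fold (log2 8.19, SE 0.45, adjusted p = 9.79e-05). CXCL1 went from 3.52, 1.47 and 2.68 to 1304, 987 and 954 TPM (533-fold). CXCL10, which attracts activated T cells, went from 2.47, 0.870 and 2.95 to 806, 1185 and 1043 TPM (606-fold). In each of these the lowest + LPS library was over 100 times the highest basal library in TPM. These genes were named by size, for which separate groups were required. CXCL16, the only CXC member tested that did not pass, was at 2.60, 1.83 and 1.83 TPM basally and 1.95, 1.26 and 2.15 TPM with LPS. Of 14 tested CC chemokines, 11 were higher and 1 lower (median 4.17). CCL7, CCL11, CCL13, CCL15, CCL17, CCL18 and CCL19 had too few counts to be tested. CCL8, with 4 counts over the basal and 169 over the + LPS libraries, could enter through + LPS libraries alone. This share and median are thus also partly set by the count filter. CCL4 (chr17:36103590-36105621) had the second largest fold, after TNFAIP6 (867-fold), among genes with at least 30 basal counts, going from 2.55, 1.66 and 2.34 to 1559, 1561 and 1241 TPM (821-fold; log2 9.68, SE 0.16, adjusted p = 4.15e-13). CCL4 and CCL4L2, and CCL3 and CCL3L3, are near-identical copies whose reads cannot all be told apart, so their separate values are uncertain. CCL20, the ligand of CCR6, rose 306-fold, whereas CCL5 was already at 260, 228 and 298 TPM and reached 530, 497 and 570 TPM (log2 1.30, SE 0.09). CCL28, a mucosal chemokine, fell by 1.30 on the log2 scale (SE 0.14).

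Of 13 tested cytokines of the IL-6, IL-10, IL-12 and colony-stimulating families, 8 were higher and none was lower, with a median of 2.67. That share and median are also partly set by the count filter, since IL6 had no basal counts. IL23A, the p19 subunit of IL-23, went from 10.7, 8.13 and 9.70 to 2250, 2067 and 1684 TPM (258-fold), and IL12B, the p40 subunit that IL-23 shares with IL-12, rose by log2 9.61 (SE 0.22). The p35 subunit IL12A, specific to IL-12, was at 0.610, 1.22 and 1.25 TPM basally and 0.535, 0.346 and 0.420 TPM with LPS (log2 -0.97, SE 0.50, adjusted p = 0.14). The 2 subunits of IL-23 were therefore abundant with LPS, at 162 to 2250 TPM, while IL12A stayed under 1 TPM in the + LPS libraries. EBI3, a partner subunit in IL-27 and IL-35, rose 193-fold. IL6 had no counts in the basal libraries and 199, 80 and 111 counts (17.5, 6.82 and 9.19 TPM) with LPS, at least 159-fold higher against a floor of 3 counts over the basal group. The anti-inflammatory cytokine IL10 stayed under 1 TPM in all 6 libraries, its groups overlapped, and its log2 fold change of 2.67 (SE 0.86, adjusted p = 0.0231) did not pass by DESeq2, nor when + LPS replicate 3, basal replicate 2 or basal replicate 3 was left out.

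Interferon transcripts were near the detection limit and interferon-stimulated genes rose modestly. IFNB1 had no counts in the basal libraries and 6, 4 and 13 counts with LPS, at least 9.35-fold higher against the same floor. This gene could thus enter its list through + LPS libraries alone. Of 45 tested interferons and interferon-stimulated genes, 33 were higher and none lower, with a median of 0.74; by library size alone these counts were 24 and 3. The guanylate-binding protein GBP2 rose most of the stimulated genes, from 2.51, 2.28 and 4.34 to 60.2, 57.9 and 54.6 TPM (log2 4.53, SE 0.17). IFIT2 rose by 2.28 (SE 0.15) and ISG15, a ubiquitin-like modifier, by 1.48 (SE 0.21).

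**Figure D3:**
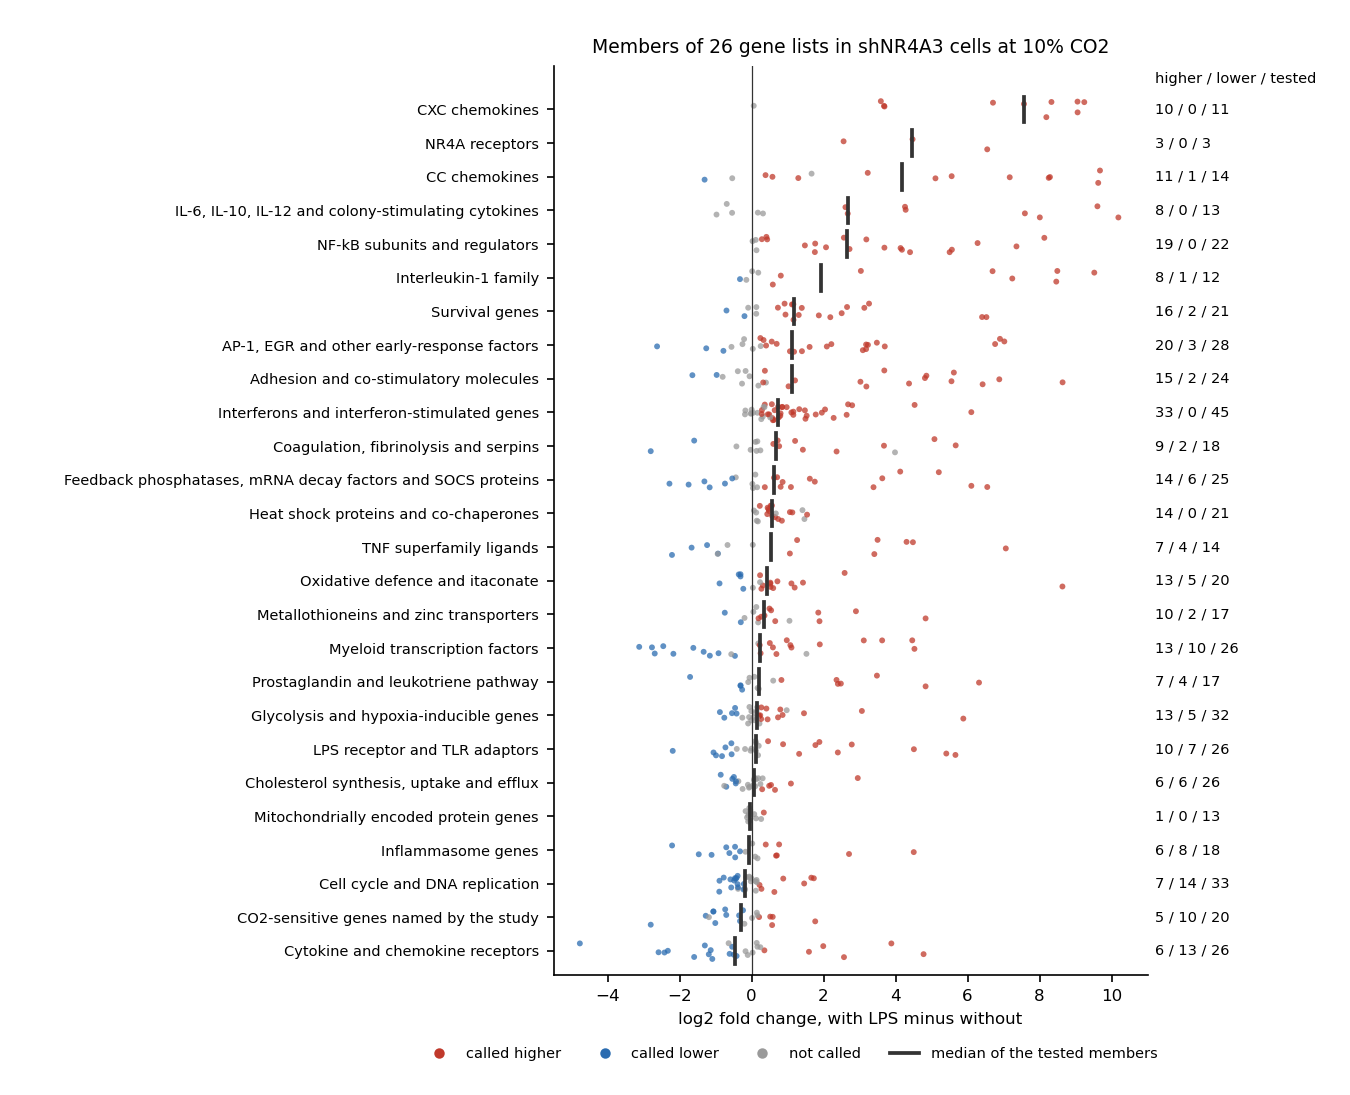
Log2 fold change with LPS of each tested gene in the 26 gene lists; each point is 1 gene, red where higher, blue where lower and grey where not called, and the bar marks the median of the list. CXC chemokines have the highest median (7.57), cytokine and chemokine receptors the lowest (-0.45).

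Immediate early transcription factors were mostly higher, 20 of 28 against 3 lower (median 1.13). EGR2 rose from 0.563, 0.793 and 1.73 to 86.1, 105 and 88.6 TPM (log2 6.77, SE 0.20), EGR1 by 3.48 (SE 0.09), JUNB by 3.18 (SE 0.07) and ATF3 by 3.18 (SE 0.10). FOS was at 42.0, 34.9 and 43.9 TPM basally and 42.7, 36.8 and 39.3 TPM at 2 h of LPS (log2 0.26, SE 0.10, adjusted p = 0.0592, or 0.00182 with the replicate block). MYC, the growth-promoting factor, went the other way, from 342, 356 and 378 to 57.0, 39.7 and 47.4 TPM (log2 -2.62, SE 0.12, adjusted p = 4.74e-08). Feedback genes split, with 14 of 25 higher and 6 lower (median 0.63). ZC3H12A, which encodes the mRNA-degrading nuclease regnase-1, had one of the tightest changes, from 11.1, 13.2 and 11.96 to 684, 695 and 693 TPM (log2 6.11, SE 0.09, adjusted p = 2.41e-14). SOCS3, an inhibitor of cytokine receptor signalling, rose by 6.55 (SE 0.19) and the MAP kinase phosphatase DUSP1 by 3.39 (SE 0.23). ZFP36L2, an mRNA decay factor, fell by 1.75 (SE 0.10), and CISH, another SOCS family member, fell by 2.28 (SE 0.21).

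Survival genes rose in 16 of 21 cases and fell in 2 (median 1.17). BIRC3, which encodes the ubiquitin ligase cIAP2, went from 0.800, 0.778 and 0.826 to 62.0, 59.2 and 62.0 TPM (log2 6.53, SE 0.10), and the BCL2 homologue BCL2A1 rose by 6.41 (SE 0.19). Pro-apoptotic members were on both sides: BCL2L11 (BIM) rose by 2.19 (SE 0.11) and BAK1 fell by 0.69 (SE 0.07). Of 24 adhesion and co-stimulatory genes, 15 were higher and 2 lower (median 1.12). VCAM1, with no basal counts, could enter this list through + LPS libraries alone. ICAM1, the integrin ligand, went from 7.11, 4.34 and 5.47 to 617, 487 and 520 TPM (log2 6.88, SE 0.20). CD80 rose by 5.55 (SE 0.35), while CD86, the other ligand of CD28, was at 7.43, 4.17 and 8.78 TPM basally and 2.97, 2.00 and 4.54 TPM with LPS (log2 -0.80, SE 0.33, adjusted p = 0.0824). With the replicate block CD86 was lower (log2 -0.82, adjusted p = 9.76e-05), as it was by DESeq2. SELPLG, the selectin ligand PSGL-1, fell by 1.64 (SE 0.13).

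Genes of the inflammasome did not move in 1 direction, with 6 of 18 higher, 8 lower and a median of -0.07. Over all genes tested, 20.6% were higher and 21.5% lower. CASP5, a sensor of cytosolic LPS, rose from 0.130, 0.0919 and 0.459 to 7.20, 2.66 and 3.33 TPM (log2 4.51, SE 0.61), and CASP1 rose by 0.40 (SE 0.11), though not when scaled by library size alone. NLRP3, the sensor itself, fell from 109, 97.6 and 109 to 55.8, 48.1 and 56.1 TPM (log2 -0.70, SE 0.09, adjusted p = 1.84e-05), and NLRC4 fell by 2.21 (SE 0.30). In the prostaglandin and leukotriene pathway 7 of 17 were higher and 4 lower, with a median of 0.20 that became -0.05 by library size alone. The share lower was close to that over all genes. PTGS2, the inducible cyclo-oxygenase, rose from 1.65, 0.971 and 1.32 to 113, 66.0 and 75.1 TPM (log2 6.32, SE 0.35), and the prostaglandin E receptor gene PTGER4 by 2.48 (SE 0.08). Of 18 coagulation, fibrinolysis and serpin genes, 9 were higher and 2 lower (median 0.67). F3, tissue factor, rose by 1.43 (SE 0.09), whereas THBD, the anticoagulant receptor thrombomodulin, fell from 318, 260 and 327 to 121, 59.4 and 66.6 TPM (log2 -1.59, SE 0.34, not past the test without + LPS replicate 3), and SERPINB2, the plasminogen activator inhibitor PAI-2, fell from 23.0, 29.4 and 25.3 to 3.04, 3.60 and 2.62 TPM (log2 -2.80, SE 0.15).

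Of 32 glycolytic and hypoxia-inducible genes, 13 were higher and 5 lower (median 0.16), but by library size alone 4 were higher and 10 lower, the median was -0.10 and 3 of the called genes changed sign. The glucose transporter genes SLC2A6 and SLC2A1 had the highest and the lowest fold change of the list. SLC2A6 rose from 12.4, 11.7 and 11.1 to 620, 576 and 523 TPM (log2 5.88, SE 0.11), while SLC2A1 (GLUT1) fell from 207, 211 and 230 to 88.1, 96.4 and 108 TPM (log2 -0.88, SE 0.07). Of 20 genes of oxidative defence and itaconate, 13 were higher and 5 lower (median 0.42), while by library size alone these counts were 8 and 6, the median was 0.17 and 1 of the called genes changed sign. SOD2, also among the genes fixed by name, and SOD3 were listed but not tested. Only 21 of the 22 listed genes were matched in the files. ACOD1, the enzyme that makes itaconate, rose from 0.0953, 0.0672 and 0 TPM to 28.7, 16.4 and 18.5 TPM (log2 8.64, SE 0.48), and NFE2L2 (NRF2) by 2.59 (SE 0.09). Among 17 metallothionein and zinc transport genes, 10 were higher and 2 lower (median 0.36), or 6 and 4 with a median of 0.11 and 1 change of sign by library size alone. The metal-responsive factor MTF1 rose by 2.90 (SE 0.08) and MT2A by 1.89 (SE 0.14). Of 26 cholesterol genes 6 were higher and 6 lower, shares close to the 20.6% and 21.5% over all genes, with a median of 0.06 that was -0.19 by library size alone. Heat shock proteins and co-chaperones were higher in 14 of 21 cases and lower in none (median 0.57), whereas by library size alone 9 were higher and 1 lower (median 0.31) and 1 called gene changed sign. For this list + LPS replicate 3 had the lowest + LPS level of HSP90AA1, at 1741, 1751 and 1239 TPM against 1190, 1156 and 1069 TPM basally (log2 0.74, SE 0.14). HSPA1A and HSPA1B, whose reads likewise cannot all be told apart, did not pass the test. Of 13 mitochondrially encoded protein genes, 1 (MT-ND3, log2 0.34, SE 0.07) was higher, and none was when scaled by library size alone.

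Cytokine and chemokine receptors were the list with the lowest median, -0.45, with 13 of 26 lower and 6 higher. The shares over all genes were 21.5% lower and 20.6% higher, the latter close to that of the list. CCR2 (ENSG00000121807; chr3:46353734-46360928), the receptor through which monocytes respond to CCL2, fell from 350, 260 and 274 to 11.4, 6.43 and 9.08 TPM, which is 27.2-fold lower (log2 -4.77, SE 0.26, adjusted p = 2.18e-05). It was the largest fall among the genes named by size. The other inflammatory chemokine receptors CXCR2 (log2 -2.58, SE 0.12), CX3CR1 (-2.42, SE 0.17) and CCR1 (-2.32, SE 0.14) were also lower, and CCR7, the receptor for lymph node homing, rose from 0.166, 0.467 and 0.146 to 4.42, 2.18 and 3.82 TPM (log2 3.88, SE 0.46). Some receptors for induced cytokines fell: IL6R went from 410, 389 and 377 to 142, 132 and 154 TPM (log2 -1.19, SE 0.08), and TNFRSF1A and TNFRSF1B fell by 1.13 (SE 0.07) and 1.09 (SE 0.14). Others rose, among them IL10RA by 2.57 (SE 0.26) and IL6ST, the signalling chain shared by the IL-6 family, by 1.60 (SE 0.09). IL1R1 rose by 0.59 (SE 0.22), but did not pass by DESeq2, by library size alone, or without + LPS replicate 1, basal replicate 1 or basal replicate 3. CCL2 itself, the CCR2 ligand, rose from 4.70, 1.84 and 3.22 to 113, 82.1 and 73.1 TPM (log2 5.11, SE 0.31).

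Transcription factors of the myeloid lineage were divided, with 13 of 26 higher and 10 lower and a median of 0.24 that was -0.01 by library size alone. GFI1 (chr1:92474762-92486876), a transcriptional repressor that acts in granulocyte development, fell from 329, 366 and 317 to 27.8, 36.5 and 32.5 TPM (8.69-fold, log2 -3.12, SE 0.10, adjusted p = 4.43e-11). CEBPA (chr19:33299934-33302564), a factor of myeloid differentiation, fell from 958, 806 and 935 to 113, 96.8 and 119 TPM (6.80-fold; log2 -2.77, SE 0.10). MYB, which is active in progenitors, fell from 311, 342 and 315 to 52.5, 64.1 and 61.9 TPM (log2 -2.17, SE 0.08). All 3 were separated from their basal libraries by more than 4-fold in TPM. GFI1 and CEBPA were named by size, for which separate groups were required. BCL6, a transcriptional repressor, rose from 5.00, 3.99 and 6.18 to 109, 84.9 and 91.9 TPM (log2 4.53, SE 0.16), while SPI1 (PU.1) rose by 0.98 (SE 0.08) from an already high level. Of 33 cell cycle and replication genes, 14 were lower and 7 higher (median -0.18), against 21.5% and 20.6% over all genes. The share higher was thus close to that over all genes. By library size alone 21 were lower and 5 higher, with a median of -0.43 and 1 called gene of changed sign. The mitotic kinase PLK1 fell by 0.90 (SE 0.20), and CCND1 and CCNE2, cyclins of G1 and of entry into S phase, rose by 1.46 (SE 0.07) and 1.73 (SE 0.09). Members of the same classes also went the other way, since CCND3, another G1 cyclin, fell by 0.58 (SE 0.09) and the mitotic kinase CDK1 rose by 0.88 (SE 0.07). Basal replicate 1 held the lowest basal level of PLK1, AURKA and CDC20, the last at 776, 1105 and 1120 TPM. Without that library all 3 were still lower with LPS, at log2 -1.04 for PLK1, -1.04 for AURKA and -0.90 for CDC20, and 22 rather than 21 genes of the list were called.

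A list of 20 genes was drawn from those that the study singled out on these samples for their response to CO2. It is therefore no independent set, and it leaves out others that the study named, such as TNF, NR4A1, NR4A3 and HSPH1. Of these 20 genes alone, 5 were higher and 10 lower with LPS (median -0.28). Among all genes tested, 20.6% were higher and 21.5% lower. SLC16A9, a monocarboxylate transporter family member, rose by 1.77 (SE 0.17), and CACNA2D3, a calcium channel subunit, fell by 1.27 (SE 0.16).

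The response of shNR4A3 cells was then compared with that of shNT cells at the same CO2, as the difference between the 2 log2 fold changes over 12 libraries. Across 17720 genes, 35 differences passed the test (0.198%), 32 of them positive and 3 negative, and 1390 had an unadjusted p under 0.05. All 35 genes were also DEGs of the LPS response in shNR4A3 cells. The count was sensitive to single libraries: it was 13 without shNR4A3 + LPS replicate 1, 23 without shNR4A3 + LPS replicate 2, 11 and 12 without basal shNR4A3 replicates 1 and 2, 22 and 9 without shNT + LPS replicates 1 and 3, and 11 without basal shNT replicate 3. DESeq2 called 99, among them all 35. With the replicate number as a block 179 genes passed (144 positive and 35 negative). With a block for each basal and + LPS pair within a line, an alternative chosen after seeing the data, 255 passed (192 positive and 63 negative), among them all 35. Each of the 35 kept its sign under all alternatives, and 7 genes (CXCR4, TP53INP2, STAT4, HIVEP2, ELL2, MROCKI and LINC01547) passed in every fit that left out 1 library.

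CXCR4 (ENSG00000121966; chr2:136114349-136118165), the receptor for CXCL12 that retains myeloid cells in bone marrow, had the lowest p of all. It went from 67.1, 57.9 and 54.1 to 19.95, 18.3 and 22.1 TPM in shNR4A3 cells (log2 -1.31) and from 29.9, 27.2 and 26.4 to 29.9, 26.03 and 32.0 TPM in shNT cells (log2 0.35). The difference was -1.65 (SE 0.17, adjusted p = 0.000112). The depleted line was above the control line before LPS and below it afterwards, with no overlap in either state. In shNR4A2 cells CXCR4 went from 56.2, 51.4 and 38.9 to 16.9, 13.8 and 13.1 TPM (log2 -1.46), and the difference from shNR4A3 cells was 0.15 (SE 0.23).

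**Figure D4:**
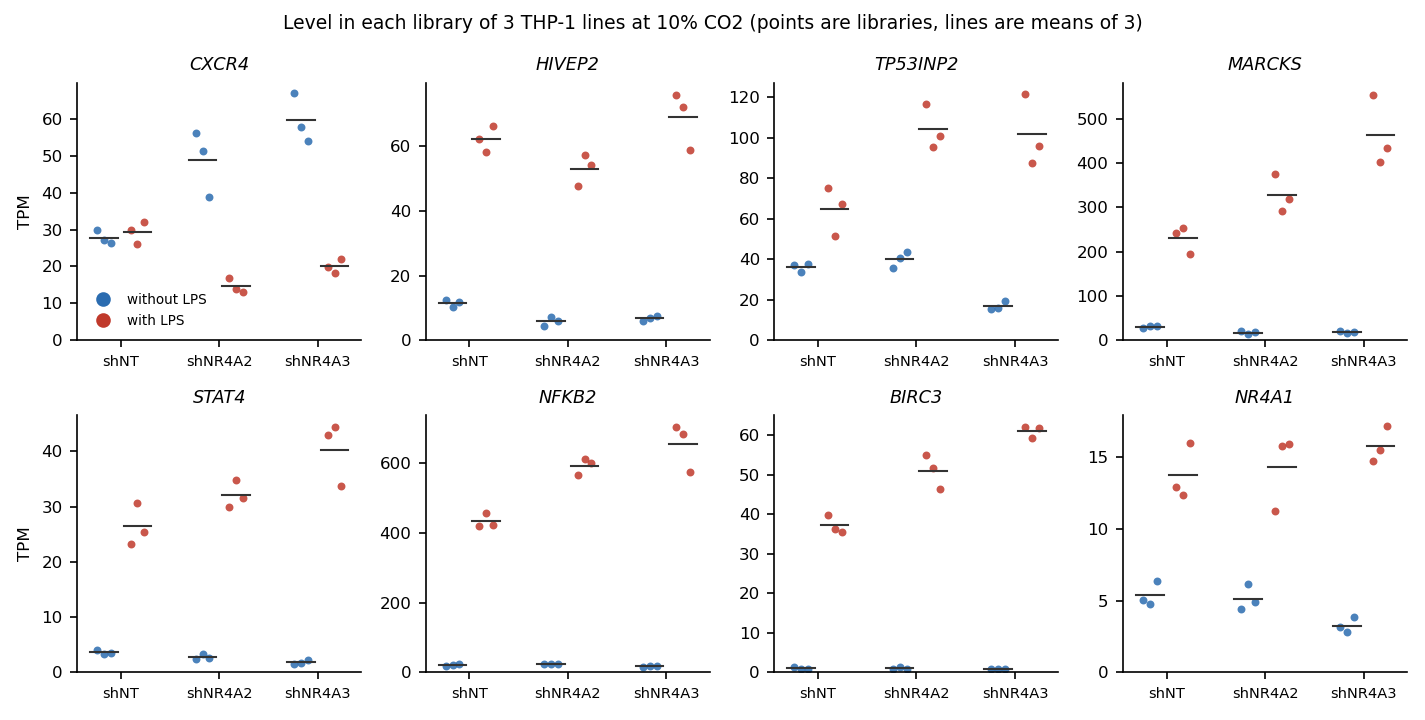
Transcript level in TPM (vertical axes, linear from 0) of 8 genes in shNT, shNR4A2 and shNR4A3 cells at 10% CO2, basal and + LPS, with 1 point per library and bars at the means of 3. For CXCR4 the shNR4A3 libraries lie at 54.1 to 67.1 TPM basally and 18.3 to 22.1 TPM with LPS, and the shNT libraries at 26.4 to 29.9 and 26.03 to 32.03 TPM.

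TP53INP2 (chr20:34704290-34713439), a gene of autophagy, had the largest positive difference, 1.75 (SE 0.18, adjusted p = 0.000212). It went from 15.4, 15.9 and 19.4 to 122, 87.4 and 95.7 TPM in shNR4A3 cells and from 36.9, 33.7 and 37.7 to 74.9, 51.5 and 67.3 TPM in shNT cells. MARCKS (chr6:113857362-113863471), an actin-binding substrate of protein kinase C, rose by log2 4.91 against 3.19 (difference 1.72, SE 0.23), with + LPS levels of 554, 403 and 434 TPM against 243, 253 and 195 TPM. STAT4 (chr2:191029576-191151596), a signal transducer of IL-12 and IL-23 receptors, rose by log2 4.71 against 3.13 (difference 1.58, SE 0.23), from 1.56, 1.75 and 2.24 to 42.9, 44.4 and 33.7 TPM in shNR4A3 cells and from 4.09, 3.40 and 3.53 to 23.3, 30.7 and 25.4 TPM in shNT cells. For all 3 genes the basal level was lower and the + LPS level higher in shNR4A3 than in shNT cells, with no overlap between these lines. In shNR4A2 cells TP53INP2, MARCKS and STAT4 rose by log2 1.67, 4.55 and 3.83. The shNR4A3 response differed from these by 1.19 (SE 0.20), 0.365 (SE 0.31) and 0.88 (SE 0.20).

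Within the fixed lists, NFKB2 (difference 0.87, SE 0.14) was the only called member of the NF-κB group, and BIRC3 (1.10, SE 0.20), CD40 (0.86, SE 0.16) and CD83 (0.92, SE 0.18) were among the other inflammatory genes with a larger rise in shNR4A3 cells. All + LPS libraries were above those of shNT for NFKB2, BIRC3 and CD83. For CD40 the + LPS libraries of the lines overlapped, while all basal shNR4A3 libraries were below those of shNT. NR4A1 rose by log2 2.55 in shNR4A3 and 1.62 in shNT cells (difference 0.93, SE 0.18, adjusted p = 0.0315). Its basal TPM was 3.19, 2.79 and 3.83 against 5.04, 4.77 and 6.39 in shNT cells, a lower basal level in every depleted library, whereas the + LPS libraries of the lines overlapped at 14.8, 15.5 and 17.2 against 12.9, 12.3 and 15.97 TPM. Of the 32 positive differences, 30 rose with LPS in both lines, 16 had all basal shNR4A3 libraries below all shNT libraries and 24 had all + LPS libraries above them. Over all genes tested these last shares were 9.85% and 16.4%; since the differences themselves chose the 32 genes, the counts are a description only.

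**Figure D5:**
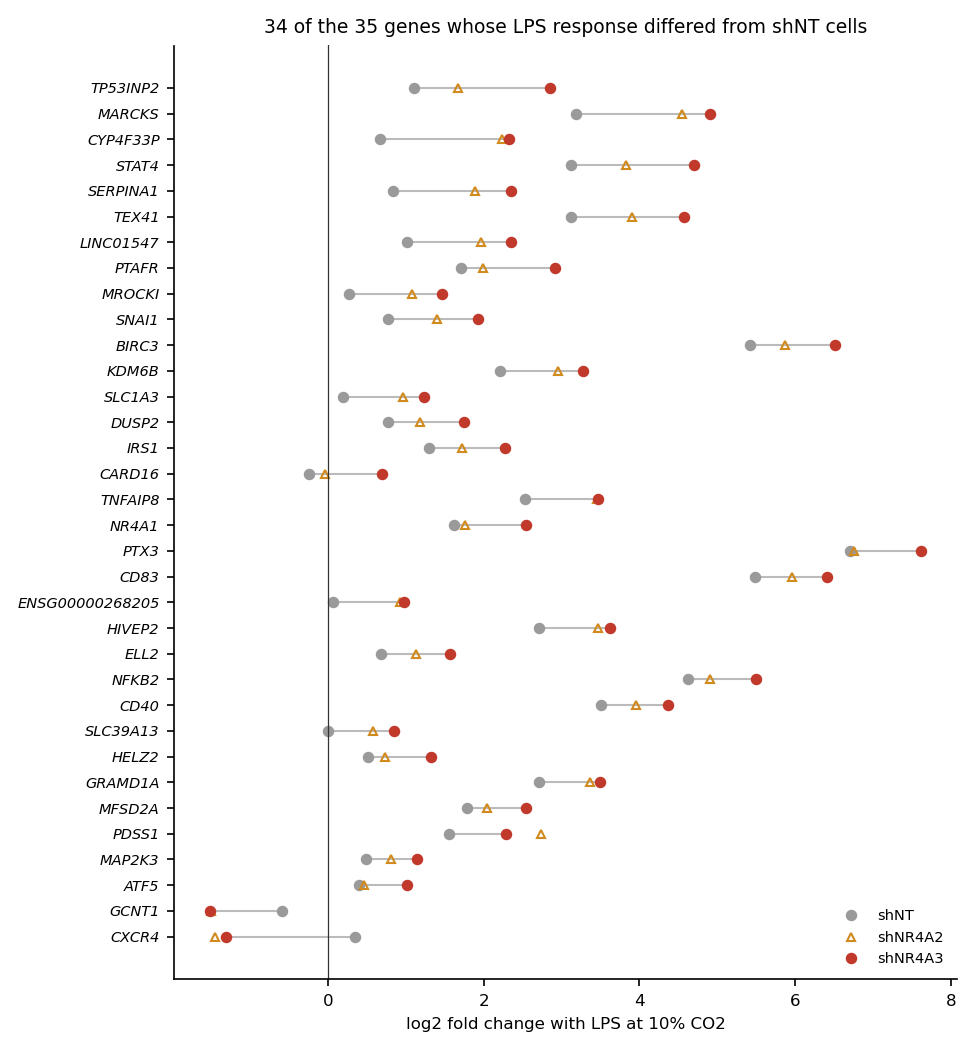
Log2 fold change with LPS at 10% CO2 (horizontal axis) in shNT (grey), shNR4A2 (open triangles) and shNR4A3 cells (red) for 34 of the 35 genes called, ordered by the difference between shNR4A3 and shNT, which the grey line spans. TP53INP2 (difference 1.75) is at the top and CXCR4 (-1.65) at the bottom.

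Other genes central to the response did not pass the test of the difference from shNT. It was 1.00 for TNF (SE 0.46, adjusted p = 0.654), 0.61 for IL1B (SE 0.36), -0.25 for CXCL8 (SE 0.39), -0.12 for NFKBIA, -0.14 for NR4A2 (SE 0.23) and -0.72 for NR4A3 (SE 0.46). TLR4 had a difference of -0.84 (SE 0.27, adjusted p = 0.42). IL6, at 0 counts in the basal libraries of both lines, reached 17.5, 6.82 and 9.19 TPM in shNR4A3 and 4.30, 2.86 and 2.34 TPM in shNT cells with LPS, without overlap, but its difference in fold change could not be fitted reliably.

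The 12 libraries of the same 2 lines at 5% CO2, which took no part in choosing the 35 genes, allowed the differences to be measured again. The 35 genes had the same sign in 35 cases there, beside 59.3% of all genes, and 26 had an unadjusted p under 0.05, beside 854 of the 17720 genes. None of the 17720 was called at 5% CO2. The median size was 0.94 at 10% and 0.84 at 5% CO2. The same lines were used at both CO2 levels, so this repeats the difference between these lines and not between independent transductions.

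Against shNR4A2 cells at 10% CO2 no gene passed the test (0% of 17720 by edgeR), with 618 at an unadjusted p under 0.05 and 13 called by DESeq2. With the replicate number as a block 37 passed, and with the block within each line 32 passed (24 positive and 8 negative). Among the 32 genes with a positive difference from shNT, 31 also had a positive difference from shNR4A2, but the 2 comparisons share the shNR4A3 libraries. The sizes ranged from -0.44 for PDSS1 (SE 0.15) to 1.19 for TP53INP2 (SE 0.20). Some were near zero, such as TNFAIP8 at 0.012 (SE 0.17) and HIVEP2 at 0.157 (SE 0.165), so the larger rise was not particular to shNR4A3 cells for every gene. Against shNR4A3 cells at 5% CO2 no gene passed either (0% by edgeR), with 995 at an unadjusted p under 0.05 and 8 called by DESeq2. With the replicate number as a block 5 genes, singled out here after their values were seen, passed: LGR4, BCL3, ANXA8 and MSC rose more at 10% CO2 and IRAG2 fell more. With the block within each CO2 level, where all 6 correlations between basal and + LPS libraries of the same number were over 0.1, 52 passed (22 positive and 30 negative).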

How the data were processed

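RNA of 36 THP-1 libraries was selected for polyA and sequenced as 2 × 150 bases. According to the submitters' processing notes, reads were trimmed with Trimmomatic 0.36 and aligned to GRCh38 with STAR 2.5.2b, and the authors deposited raw counts per gene made with featureCounts of Subread 1.5.2. Which gene annotation was used, and how strand and read pairs were counted, is not given in the sources used here. Of 57500 gene IDs, 56410 were matched to a symbol.

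Genes were kept by filterByExpr (minimum count 10, minimum total 15, 12 groups), which left 17720. Counts were scaled by TMM and tested with the robust quasi-likelihood F test of edgeR 4.0.16 (R 4.3.3) over the 6 libraries of the response, or over 12 with an interaction term, with Benjamini-Hochberg adjustment and a threshold of 0.05. The SE is the log2 fold change divided by the square root of F. DESeq2 1.42.0 was the alternative, and the other alternatives are given in the closing section. TPM were computed from the counts and gene lengths in the files. Scripts were tested on simulated data. For the response, replicate numbers paired the samples: deviations of same-numbered libraries correlated at 0.26, 0.148 and 0.143 over all genes tested. Among the 9270 genes with a mean CPM (counts scaled to the library total) of 10 or more, they correlated at 0.572, 0.492 and 0.367. Differently numbered libraries correlated at -0.402 to -0.076 in these genes. The main fits left this pairing out, and fits with a replicate block are given as alternatives. Genes named by size were the 15 largest called changes each way among genes with a symbol. They also needed at least 30 counts summed over the lower group and no overlap between the groups, so their separation was a condition of choice. Also named were the 4 largest called changes each way in each list, genes fixed by name and the 5 most counted of those with no basal counts. The 6 largest and the 6 lowest in p of each difference were added. Other list members were named for their role after their values were seen. The members and the 26 gene lists were chosen with earlier results of these data known. Values of a few named genes are not reported here.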

Additional observations from a re-analysis of the deposited data

Results flagged for a closer look

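The LPS response at 10% CO2 differed between shNR4A3 and shNT cells for 35 genes by the interaction test of edgeR (adjusted p under 0.05), which is why these genes are listed for a closer look. CXCR4 (difference -1.65, SE 0.17) and TP53INP2 (1.75, SE 0.18) had the lowest adjusted p, at 0.000112 and 0.000212.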

How the results depend on the processing

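For the genes named, 3288 of the values computed under alternatives kept the direction and the side of the threshold, 54 no longer passed it, 13 newly passed it and 9 changed sign. The sign changes were in genes that had not passed: by library size alone TLR4 was -0.051, LY96 -0.066 and CXCL16 -0.188 on the log2 scale, and leaving out 1 library LY96 ranged from -0.172 to 0.401 and CXCL16 from -0.099 to 0.271. For the response, a test against a 1.5-fold change left 2324 DEGs, and scaling by library size alone gave 1969 higher and 6791 lower, with 1681 lower by 2-fold or more. A replicate block gave 9244 DEGs and changed the call of no named gene other than TLR4, CD14, CD86 and FOS, which then passed. Among the lists, the count of mitochondrially encoded genes called was 0 by library size and 2 without basal replicate 3, and that of prostaglandin and leukotriene genes was 7 without basal replicate 3 and 6 at an adjusted p under 0.01. For the difference from shNT, the genes called were 6 in 1 fit to all 36 libraries, 99 by DESeq2, 135 with no filter, 179 with the replicate block, 255 with a block within each line, 7 at an adjusted p under 0.01, 0 at 5% CO2 (like the block within each line or CO2 level, an alternative chosen after seeing the data) and 9 to 43 leaving out 1 library. For the difference from shNR4A2, they were 13 by DESeq2, 1 in thinned counts, 43 with no filter, 37 with the block, 32 with that within each line and 0 to 1 leaving out 1 library. For the difference from 5% CO2, they were 8 by DESeq2, 1 in thinned counts, 1 in the fit to all libraries, 89 with no filter, 5 with the block, 52 with that within each CO2 level and 0 to 1 leaving out 1 library. In these 3 differences 7, 9 and 12 of 18 correlations of same-numbered samples were over 0.1, and 5, 5 and 6 of 6 between basal and + LPS samples of 1 line and CO2 level, so pairing across lines is unsettled, while for 5% CO2 the numbers paired basal with + LPS samples. The cause of these changes was not tested. Low depth limits genes with few counts, NR4A3 in basal cells among them.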
